A study of Saccharomyces cerevisiae with 6 samples.

Results

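The genes described here encode the mitochondrial machinery that builds iron-sulfur clusters in budding yeast. They are the 10 genes NFS1, ISU1, ISU2, YFH1, SSQ1, JAC1, GRX5, ISA1, ISA2 and NFU1, chosen by name for their place in the pathway, out of 5379 genes with a spot on the array. The choice was made with earlier results of these data known, so counts of called members are not an independent test. Of the 10, 9 had a spot, 6 had values on all 3 arrays and were tested, and 3 (YFH1, ISA1 and JAC1) had values on 2 arrays and are given as values. SSQ1 is not named by a spot in the platform annotation and was not analysed here. Treated cells were Saccharomyces cerevisiae of the laboratory strain S288C, growing exponentially in the rich medium YPD at 25 °C, that received 12.6 µM zinc pyrithione in dimethyl sulfoxide for 2 h. Control cells were of the same strain, medium and temperature and grew for the same 2 h with nothing added, so the solvent and the compound cannot be told apart. Polyadenylated RNA of treated cells carried Cy5 and that of control cells Cy3 on each of 3 cDNA arrays from independent biological samples. A high-power and a low-power laser scan were made of each array, and the 6 scans were counted as 3 replicates.

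Iron-sulfur clusters are inorganic cofactors of electron carriers, dehydratases and radical enzymes, and their assembly in mitochondria is an essential task of this organelle in yeast. A desulfurase takes sulfur from cysteine, and a cluster forms on a scaffold protein with the help of frataxin and a ferredoxin. A dedicated chaperone pair then releases the cluster to a glutaredoxin, and late factors convert it and hand it to particular enzymes. In the account below the desulfurase, scaffold and frataxin genes are the early step, and the genes of transfer (SSQ1, JAC1, GRX5) and targeting (ISA1, ISA2, NFU1) the late step.

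Values are log2 ratios of treated over untreated cells. No source used here names the numerator of the ratio, and Cy5 (channel 1) over Cy3 (channel 2) was taken as the likely direction by convention. With the opposite direction each sign given below would turn. The dyes were never swapped, so dye and treatment cannot be told apart either. High-power scans held values for 4693 to 5737 of 6912 spots and low-power scans for 1789 to 3372. Both scans were averaged within an array, and 4312 genes with a value on all 3 arrays were fitted together with limma. The median SD between arrays was 0.273 over these genes and their median log2 ratio was 0.03. The values are ratios, with no level of either channel, so that the strain could not be checked against marker levels. Spot brightness was not analysed here. In bulk RNA, fewer transcribing cells and less RNA per cell cannot be told apart.

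The assembly genes did not move as a block: 2 of the 6 tested rose (ISU2 and NFS1), 2 fell (GRX5 and NFU1) and 2 did not pass the test (ISU1 and ISA2). Over all 4312 genes, 8.09% were called higher and 9.58% lower at a limma adjusted p under 0.05, together 17.7%. YFH1 and ISA1, on 2 arrays each, had values as low as those of GRX5 and NFU1. The plot of the 9 genes by scan shows ISU2 highest, NFS1 above 0 in each scan, a cluster of low genes near -1.8, and ISU1, ISA2 and JAC1 around 0.

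**Figure D1:**
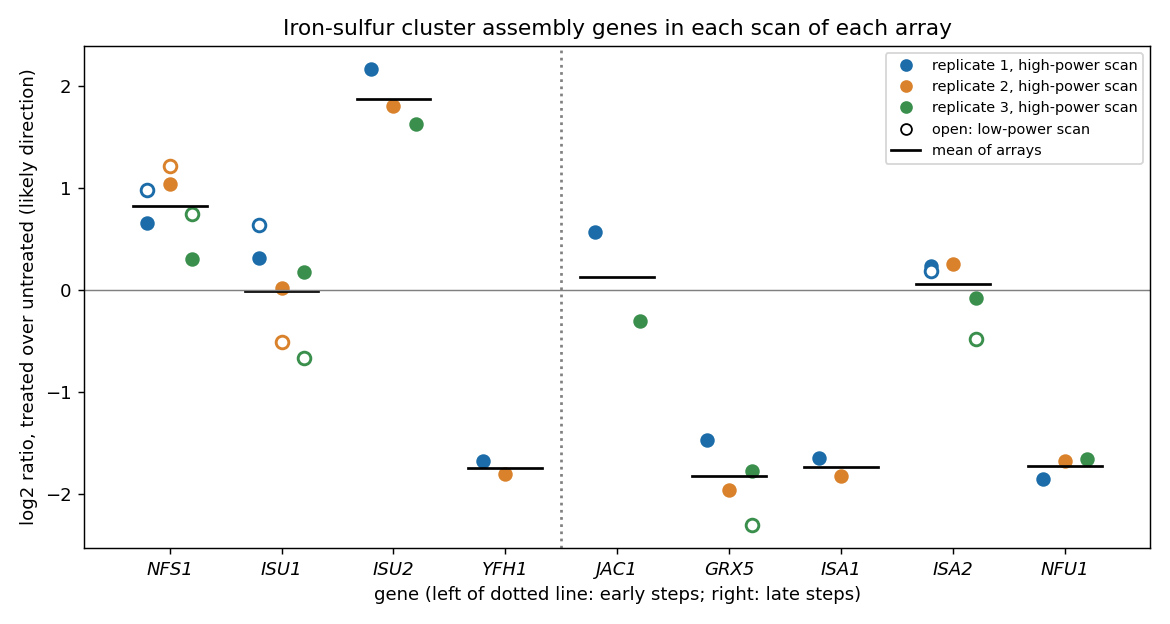
Log2 ratio (vertical axis, likely treated over untreated) of the 9 assembly genes with a spot, in each high-power scan (filled) and low-power scan (open) of replicates 1 to 3, with the mean over arrays as a bar. ISU2 lies between 1.63 and 2.17, while YFH1, GRX5, ISA1 and NFU1 have every point below -1.4.

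NFS1 (YCL017C) encodes the cysteine desulfurase that supplies sulfur to the scaffold. Its log2 ratio was 0.82, 1.13 and 0.52 on arrays 1, 2 and 3, above 0 on each. The mean was 0.82 ± 0.30 (SD, n = 3), which is 1.77-fold higher in treated cells (limma adjusted p = 0.019). Without array 1 or array 2 the size was 0.83 and 0.67, and the limma adjusted p became 0.096 and 0.10, while without array 3 it was 0.022 at a size of 0.97. NFS1 also lost its call when the change had to exceed 1.5-fold (limma treat, adjusted p = 0.99).

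ISU1 (YPL135W) and ISU2 (YOR226C) encode paralogous scaffold proteins on which the cluster is first put together. ISU2 stood at 2.17, 1.81 and 1.63 on arrays 1, 2 and 3. It was the highest of the assembly genes on each array, and 28th from the top among the 4312 genes. Its mean of 1.87 ± 0.27 (SD, n = 3) is a 3.65-fold higher ratio (limma adjusted p = 0.00059). ISU1 stood at 0.48, -0.24 and -0.24, on both sides of 0. Its mean was -0.0041 ± 0.42 (SD, n = 3; limma adjusted p = 0.99), with a 95% interval from -0.46 to 0.45.

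The 2 scaffold genes were therefore apart by 1.69, 2.05 and 1.88 on the log2 scale within arrays 1, 2 and 3, with ISU2 above ISU1 on each. The mean difference was 1.87 ± 0.18 (SD, n = 3). ISU2 has high-power values only, whereas ISU1 is averaged over both scans. In the high-power scans alone the mean difference was 1.70 ± 0.21 (SD, n = 3). An exact two-sided sign-flip permutation test over the arrays gave p = 0.25, the smallest that 3 arrays allow. The proteins are alike in sequence, and a cDNA spot can bind the transcripts of both genes. How far the spots do so was not tested.

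YFH1 (YDL120W) encodes frataxin, which promotes sulfur transfer and cluster formation on the scaffold. It had values in the high-power scans of arrays 1 and 2, at -1.67 and -1.80, with a gap of 0.13 between them. Its mean of -1.74 corresponds to a 3.33-fold lower ratio, against the desulfurase and scaffold genes, which were at or above 0 on these arrays apart from ISU1 on array 2. YFH1 has no value on array 3. In a fit that took 5048 genes with values on at least 2 arrays, it passed the test (limma adjusted p = 0.0036) as did 14.7% of those genes.

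JAC1 (YGL018C) encodes the J-protein co-chaperone that brings the loaded scaffold to its Hsp70 partner. Its 2 values, 0.57 on array 1 and -0.30 on array 3, lay on opposite sides of 0. Their mean was 0.13, and in the fit on at least 2 arrays the 95% interval ran from -0.51 to 0.78 (limma adjusted p = 0.76). No direction can be given for JAC1.

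GRX5 (YPL059W) encodes the mitochondrial monothiol glutaredoxin that takes over the cluster from the chaperones. It stood at -1.47, -1.96 and -2.04 on arrays 1, 2 and 3. Its mean of -1.82 ± 0.31 (SD, n = 3) is a 3.54-fold lower ratio (limma adjusted p = 0.00073). GRX5 ranked 44th from the bottom of the 4312 genes.

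NFU1 (YKL040C) encodes a factor that delivers clusters to enzymes such as lipoate synthase. It was the steadiest of the tested assembly genes, at -1.85, -1.67 and -1.65 on arrays 1, 2 and 3. Its mean of -1.72 ± 0.11 (SD, n = 3) is 3.30-fold lower (limma adjusted p = 0.00054), in position 52 from the bottom. Of all tested genes, 1.21% lay at or below NFU1.

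ISA1 (YLL027W) and ISA2 (YPR067W) encode A-type proteins that work together, with IBA57, in making clusters of the aconitase type. ISA1 had values on arrays 1 and 2, -1.64 and -1.82, with a mean of -1.73 or 3.32-fold lower. In the fit on at least 2 arrays ISA1 passed the test (limma adjusted p = 0.0038). ISA2 stood at 0.21, 0.26 and -0.27, with a mean of 0.066 ± 0.29 (SD, n = 3; limma adjusted p = 0.82) and a 95% interval from -0.34 to 0.47. On the 2 arrays that hold both, ISA2 was 1.86 and 2.08 above ISA1 on the log2 scale. With 2 arrays this difference was not tested.

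The early and late steps differed in several genes but did not separate cleanly. Of the early genes, NFS1 and ISU2 rose and ISU1 did not pass, while YFH1 was low on its 2 arrays. Of the late genes, GRX5 and NFU1 fell, ISA2 did not pass, ISA1 was low on its 2 arrays and JAC1 went both ways. The median over the 4 early genes was 0.41, within a range from -1.74 to 1.87. The median over the 5 late genes with values was -1.72, within a range from -1.82 to 0.13, beside 0.02 over the 5048 genes on at least 2 arrays.

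These medians depend on which genes each array holds. Without array 1 or array 2 the early median was 0.83 or 0.67, since YFH1 then has a single value and leaves it, and it was 0.55 without array 3. The late median was -0.89 without array 2, where ISA1 leaves it and JAC1 stays. Over the genes on 3 arrays alone it was 0.82 for the early step and -1.72 for the late one.

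Differences within an array restate these values pair by pair. They show the contrast for NFS1, ISU1 and ISU2 against GRX5 and NFU1, but not for every early and late pair. NFS1 was above GRX5 by 2.29, 3.09 and 2.56 on arrays 1, 2 and 3, a mean difference of 2.65 ± 0.41 (SD, n = 3). ISU2 was above GRX5 by 3.64, 3.76 and 3.67, so that this difference varied less between arrays than either gene did. On array 3, however, GRX5 averages -1.77 at high and -2.30 at low power, while ISU2 has a high-power value only. The small spread depends in part on this mix of scans. ISU1 was above GRX5 as well, by 1.82 ± 0.12 (SD, n = 3), and above NFU1 by 1.72 ± 0.53. NFS1 and ISU1 were less apart from ISA2. NFS1 stood 0.76 ± 0.14 above it. ISU1 was above ISA2 on 2 of 3 arrays, with a mean difference of -0.070 ± 0.39. ISU2 stood 1.80 ± 0.22 above ISA2 (SD, n = 3). YFH1 minus ISA2 was -1.88 and -2.06 on arrays 1 and 2. On these arrays YFH1 minus GRX5 was -0.20 and 0.15, and its differences from NFU1 and ISA1 also changed sign. ISU1 minus JAC1 was -0.10 and 0.06 on arrays 1 and 3.

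From the highest to the lowest mean, the order was ISU2, NFS1, JAC1, ISA2, ISU1, NFU1, ISA1, YFH1 and GRX5. ISU2 was above NFS1 by 1.05 ± 0.34 (SD, n = 3) and on each array. JAC1, ISA2 and ISU1 could not be ordered: their differences changed sign between arrays. NFU1, ISA1, YFH1 and GRX5 could not be ordered either, and the means of these 4 genes lay between -1.82 and -1.72. The plot of all tested genes places this low group in the lower tail, ISU2 in the upper tail, and ISU1, ISA2 and JAC1 at the centre.

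**Figure D2:**
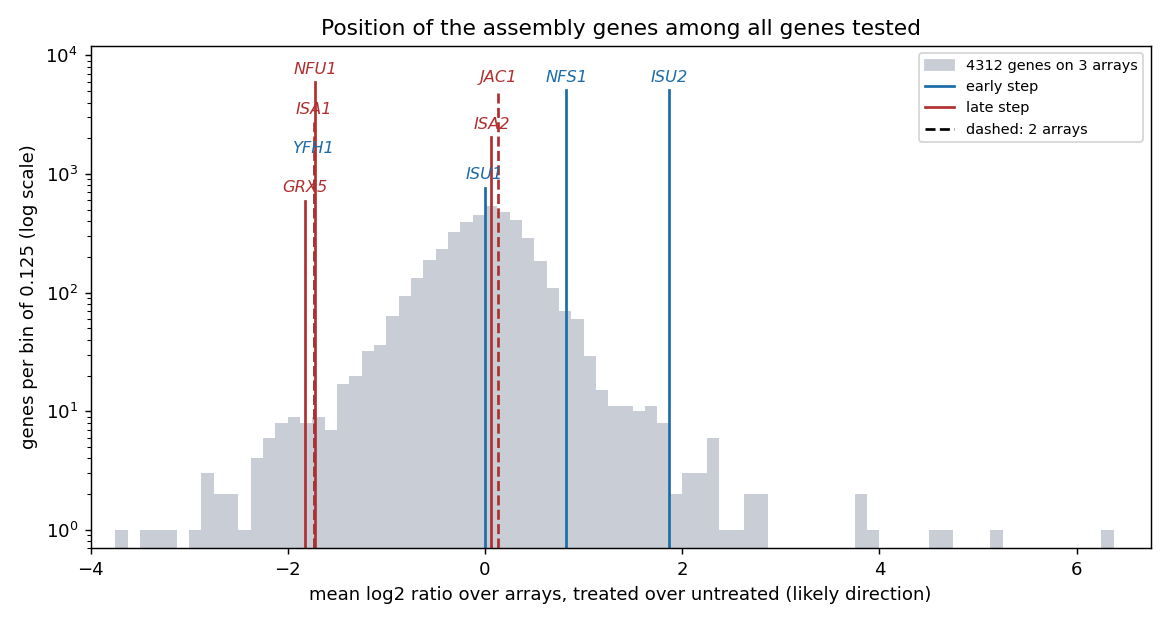
Histogram of the mean log2 ratio of the 4312 genes with values on 3 arrays (grey; the vertical axis is logarithmic), with vertical lines at the assembly genes of the early step (blue) and the late step (red), dashed for genes on 2 arrays. Line heights serve only to separate the names. GRX5, YFH1, ISA1 and NFU1 lie between -1.82 and -1.72, and ISU2 lies at 1.87.

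Scans at low laser power held few of these genes. Of the 9 with a spot, 5 (ISU2, YFH1, JAC1, ISA1 and NFU1) had no low-power value on any array, and 30.6% of all genes on at least 2 arrays had none. Among the 6 tested on 3 arrays it was 2 (ISU2 and NFU1), beside 21.7% of the 4312 genes. Their ratios therefore rest on the high-power scans. NFS1 was higher at low power than at high power on each array, by 0.32, 0.18 and 0.44. ISU1 differed by 0.32, -0.53 and -0.85 (low minus high), where the median size of that difference over all genes was 0.15, 0.19 and 0.28. In the high-power scans alone ISU1 stood at 0.32, 0.02 and 0.18, a mean of 0.17 ± 0.15 (SD, n = 3; limma adjusted p = 0.40). On array 3, ISA2 stood at -0.07 at high and -0.47 at low power, and GRX5 at -1.77 and -2.30.

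Partners of the early step did not pass the test. Of the 4 genes ISD11, ACP1, YAH1 and ARH1, 0 were called by limma in either direction, beside 17.7% of all genes tested. Their median was -0.22. YAH1, the ferredoxin gene, stood at -0.17, -0.96 and -1.56, a mean of -0.89 ± 0.70 (SD, n = 3; limma adjusted p = 0.053). ACP1, whose acyl carrier protein binds the desulfurase complex, had a mean of -0.58 ± 0.42 (limma adjusted p = 0.082). At an unadjusted p under 0.05, the limma fit had 2 of these 4 genes. The share of all genes under that unadjusted cutoff was not counted, here or for the lists below. It is at least the 17.7% called after adjustment, so no excess can be read from such counts.

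Of 4 mitochondrial chaperone and co-chaperone genes, drawn as transfer partners, 3 fell and 1 rose, beside 9.58% and 8.09% of all genes tested. MGE1 alone among them is described below as serving SSQ1, so the list does not stand for cluster transfer itself. SSC1, the gene of the abundant general Hsp70 of the matrix, fell to -1.25 ± 0.34 (SD, n = 3; limma adjusted p = 0.0048). MDJ1, its J-protein co-chaperone in protein folding, fell to -0.95 ± 0.17 (limma adjusted p = 0.0077). MGE1, the nucleotide exchange factor that serves SSC1 and SSQ1, stood at -0.65 ± 0.33 (limma adjusted p = 0.047) and is named here after its value was seen. ECM10, a paralog of SSC1, rose to 0.71 ± 0.32 (limma adjusted p = 0.033). SSC1 and ECM10 are close relatives of each other and of SSQ1, and binding of related transcripts to a spot was not tested.

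Of the targeting partners, IBA57 alone had a spot, with a mean of -0.14 ± 0.15 (SD, n = 3; limma adjusted p = 0.58). The list of iron, glutathione and export supply holds the mitochondrial iron carriers MRS3 and MRS4 and the exporter ATM1. Of its 9 tested genes 0 were called by limma, beside 17.7% of all genes tested. The farthest from 0 were GLR1, the glutathione reductase gene, at 0.50 ± 0.28 (limma adjusted p = 0.081) and MTM1, a mitochondrial carrier gene, at 0.45 ± 0.06 (limma adjusted p = 0.076). At an unadjusted p under 0.05 the limma fit had 2 of these 9. The share over all genes was not counted but is at least 17.7%. The median of the list was 0.05.

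**Figure D3:**
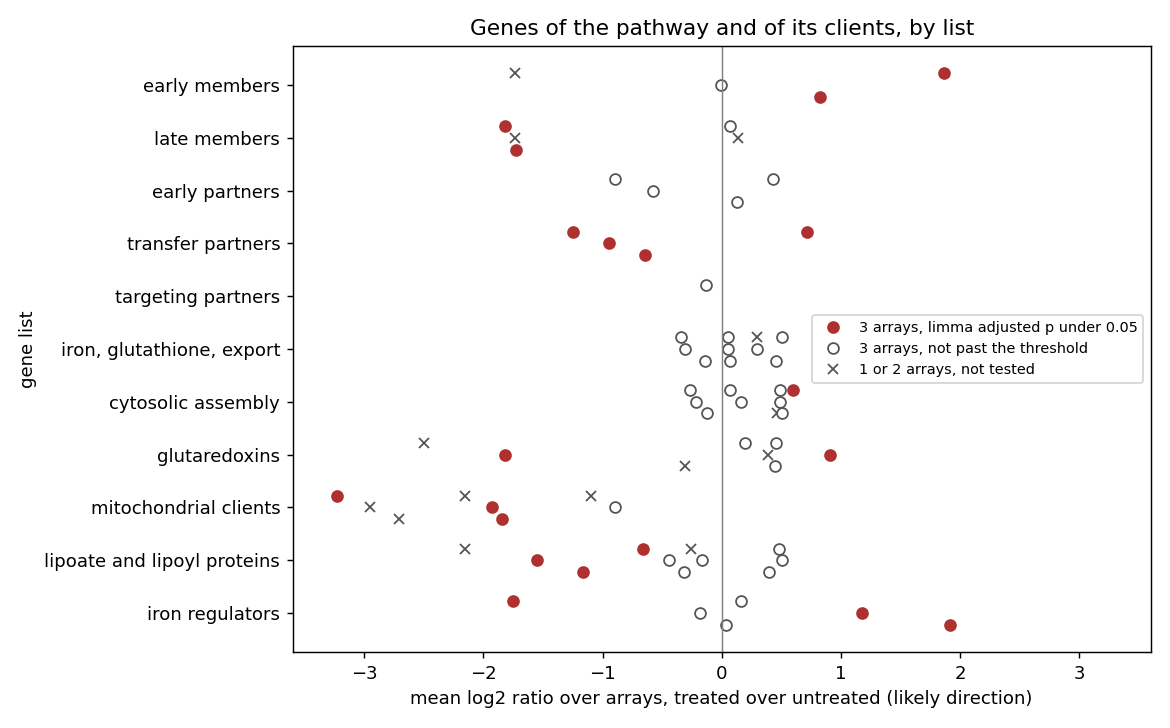
Mean log2 ratio (horizontal axis, likely treated over untreated) of the genes in each list, with genes on 3 arrays past the threshold filled, other genes on 3 arrays open, and genes on 1 or 2 arrays as crosses. Each of the mitochondrial clients lies below 0, whereas the lists of supply and cytosolic assembly lie around 0.

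Of 8 genes of mitochondrial proteins that receive the clusters, 4 were tested on 3 arrays and 3 of them fell (SDH2, ACO1 and ILV3), beside 9.58% of all genes tested. Each of the 8 had a mean below 0, from values that for 4 of them stand on 1 or 2 arrays and were not tested. Over all genes tested the median was 0.03, so a mean below 0 is by itself common. SDH2, the iron-sulfur subunit gene of succinate dehydrogenase, stood at -3.08, -3.45 and -3.16 (limma adjusted p = 8.2e-05). ACO1, the aconitase gene, stood at -1.78, -2.04 and -1.96, and ILV3, the gene of a dehydratase of branched amino acid synthesis, at -2.12, -1.72 and -1.70. YAH1, which is also among the early partners above, is the tested gene of this list that did not pass. Further clients are named after their values were seen: RIP1, the Rieske protein gene of complex III, had -3.33 and -2.57 on arrays 2 and 3, LYS4, the homoaconitase gene, -2.51 and -2.90 on arrays 1 and 3, and LIP5, the lipoate synthase gene, -2.30 and -2.02 on arrays 1 and 2. BIO2, the biotin synthase gene, had the single value -1.10. SDH2 was thus farther from 0 than any assembly gene on each array.

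Of 9 tested genes of lipoate synthesis and lipoyl-bearing complexes, 3 fell and 0 rose, with a median of -0.31. Over all genes tested, 9.58% fell and 8.09% rose. At an unadjusted p under 0.05 the limma fit had 6 of these 9. The share of all genes under that cutoff was not counted and is at least 17.7%, so the 6 are not read as an excess. KGD1 and KGD2, subunit genes of 2-oxoglutarate dehydrogenase, fell to -1.55 ± 0.53 and -1.17 ± 0.26 (SD, n = 3; limma adjusted p = 0.0042 and 0.0047). LIP2, a lipoyl transferase gene, fell to -0.66 ± 0.21 (limma adjusted p = 0.032).

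The cytosolic assembly machinery, which depends on the mitochondrial one, had a median of 0.16, and 1 of 9 tested genes rose and 0 fell. Over all genes tested, 8.09% rose and 9.58% fell. At an unadjusted p under 0.05 the limma fit had 4 of the 9. Again the share of all genes under that cutoff was not counted and is at least 17.7%, so no shift of the list is read from it. The gene that passed was LTO1, an adaptor for cluster delivery to a ribosome-associated protein, at 0.63, 0.59 and 0.57 (limma adjusted p = 0.034). Among 5 tested glutaredoxin genes, GRX5 fell and GRX1, a dithiol enzyme of the cytosol, rose to 0.91 ± 0.16 (SD, n = 3; limma adjusted p = 0.0091). Of 6 tested iron regulators, 2 rose and 1 fell, beside 8.09% and 9.58% of all genes tested. TIS11, whose product binds and destabilises messenger RNAs for proteins that use iron, stood at 1.74, 1.88 and 2.13. CTH1, its paralog, stood at -1.95, -1.46 and -1.84, and YAP5, an activator gene of the high-iron response, at 1.30, 1.11 and 1.13 (limma adjusted p = 0.00042, 0.00071 and 0.0029 for the 3 genes).

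The protein-coding genes on either side of each assembly gene were compared with it, a comparison added after the values were seen. Of 20 such neighbours, 15 were tested, 1 was called higher and 3 lower, beside 8.09% higher and 9.58% lower over all genes tested. Next to ISU2, RPB8 stood at -0.16 and HER1 at 0.05. Next to NFU1, VPS24 stood at -0.09 and PTM1 at 0.26, and next to ISA1, TPO1 stood at 0.33 and HSP104 at -0.32, with none of these 6 past the threshold (limma adjusted p from 0.19 to 0.83). Next to YFH1, HEM25, a mitochondrial glycine carrier gene that serves heme synthesis, fell to -0.65 (limma adjusted p = 0.035) and EXP1 stood at -0.73 (limma adjusted p = 0.057). Both neighbours of ISU1 fell, GIP3 to -0.74 and ODC1 to -0.67 (limma adjusted p = 0.025 and 0.043), and LEU2, next to NFS1, rose to 1.55 (limma adjusted p = 0.0064).

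**Figure D4:**
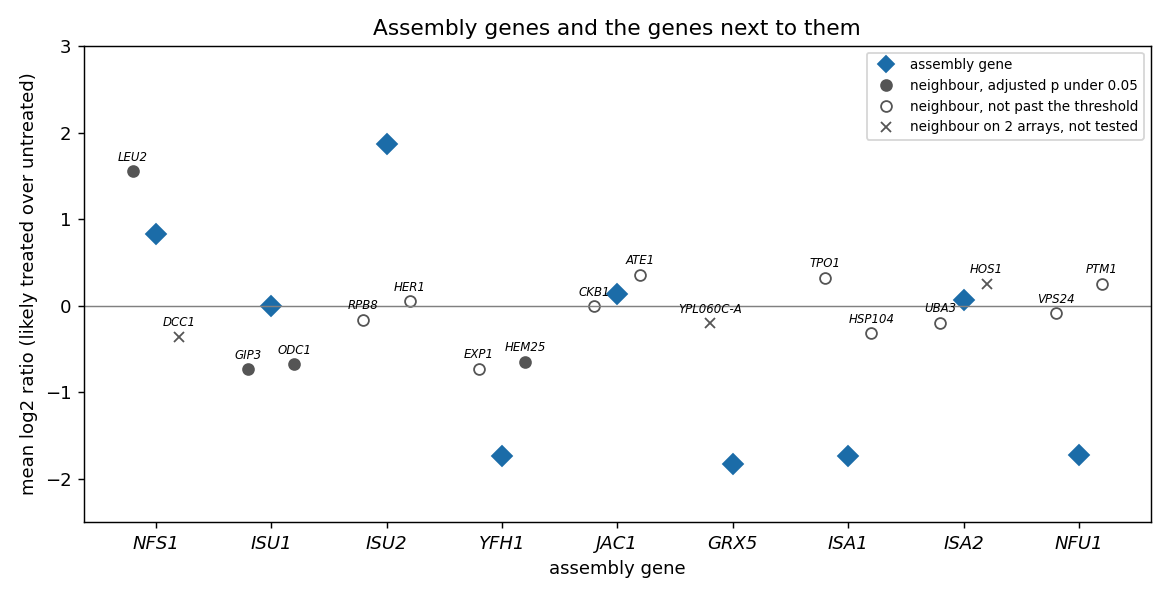
Mean log2 ratio (vertical axis) of each assembly gene (diamond) and of the protein-coding genes annotated next to it (circles, filled where limma's adjusted p was under 0.05; crosses, 2 arrays). ISU2, GRX5, ISA1 and NFU1 stand apart from the measured neighbours drawn beside them. For GRX5 the only neighbour drawn is YPL060C-A, at -0.20 on 2 arrays and not tested.

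For each called assembly gene, the 2 other genes with the smallest Euclidean distance over the log2 ratios of the 3 arrays were listed. For ISU2 these were GTT1 (distance 0.35; mean 1.73) and ICT1 (distance 0.39; mean 1.81). For NFS1 they were LUG1 (distance 0.11) and THI13 (distance 0.12), and for GRX5, DAP1 (distance 0.15) and ERG7 (distance 0.19). For NFU1 they were LEU1 (distance 0.14; mean -1.73) and MIR1 (distance 0.22; mean -1.70). With 3 arrays this distance mostly reflects a like mean.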

How the data were processed

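RNA of treated and untreated yeast was compared on 3 2-colour cDNA arrays. The deposited values are log2 ratios, 1 column per scan. The base was read from the values. LOWESS normalization was done by the authors on unflagged spots, per the labels. It centres the ratios of a scan near 0, and a change common to most genes is removed with it. The platform annotation gave 1 gene for 5446 of 6912 spots, which were matched by gene number to RefSeq (assembly R64), used for names and for which genes neighbour each other. Both scans of an array were averaged where present, then spots of a gene. Genes with values on 3 arrays were tested against 0 with limma 3.58.1 (R 4.3.3; lmFit, eBayes) and Benjamini-Hochberg adjustment over all of them. The fit was tested on simulated data. Figures were drawn with matplotlib 3.10.9. There were 0 unused sample columns.

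The members and lists were chosen with earlier results of these data known. Named genes were all members; of each other list up to 3 genes past the threshold farthest from 0, or up to 2 as values where none passed; and the 2 nearest genes of each called member. Exceptions are marked. No sequence is printed, because none was given for these genes. Alternatives were the scans of 1 laser power, genes with both scans or with at least 2 arrays, median centring, quantile normalization, unnamed spots included, an adjusted p under 0.01, eBayes in its robust form, treat (limma) against 1.5-fold, 1 spot per gene, and each array left out. The number of arrays limits the precision.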

Additional observations from a re-analysis of the deposited data

How the results depend on the processing

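Directions of ISU2, NFS1, GRX5 and NFU1 held under each alternative that could test them, and ISU2, GRX5 and NFU1 kept their calls, with sizes of 1.72 to 1.99, -1.998 to -1.71 and -1.81 to -1.66. NFS1 kept its direction (0.67 to 0.98) and lost its call at an adjusted p under 0.01, under treat, and without replicate 1 or replicate 2. ISU1 and ISA2, which lie near 0, changed sign with no call: ISU1 was 0.17 in high-power scans alone, 0.045 with quantile normalization, and -0.24 to 0.12 with a replicate left out; ISA2 was -0.030 to 0.24 with a replicate left out. The number of called genes, 762, was 295 at an adjusted p under 0.01, 357 for genes with both scans on all 3 arrays, 142 under treat against 1.5-fold, 151 in low-power scans alone, and 306 to 641 with a replicate left out (308 without replicate 1, 306 without replicate 2). Members called numbered 4, and 3 to 4 with a replicate left out. In low-power scans alone and among genes with both scans on all 3 arrays, 2 members could be tested and 1 was called. In the fit on at least 2 arrays 6 of 9 were called, 2 higher and 4 lower, beside 14.7% of all genes in that fit. The early median, 0.41, was 0.55 to 0.83 with a replicate left out. The late median, -1.72, was -0.030 for genes with both scans and -0.14 in low-power scans alone, where ISA2 was the single late gene left, and -1.72 to -0.89 with a replicate left out. The difference ISU2 minus ISU1 was 1.70 to 1.96 and could not be had from low-power scans, which hold no value of ISU2. Each array already sets treated against untreated cells, so the test of the ratio against 0 is itself paired. The series has 1 group, and no other paired comparison of samples was possible. Spot brightness was not analysed here, so that spots near background could not be marked.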

Other observations

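The cytosolic monothiol glutaredoxin genes GRX3 and GRX4, paralogs whose proteins take part in iron sensing, were far apart. GRX4 stood at -2.60 and -2.40 on arrays 1 and 2 and has no value on array 3. GRX3 stood at 0.59, 0.47 and 0.28 (limma adjusted p = 0.088). Both were singled out after their values were seen.

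Among lipoyl-bearing complexes, subunit genes of pyruvate dehydrogenase did not follow those of 2-oxoglutarate dehydrogenase. LAT1, PDA1 and PDX1 had means of 0.48, 0.40 and 0.51 with no call (limma adjusted p = 0.068, 0.14 and 0.078), and the difference from KGD1 and KGD2 was not tested. PDB1 stood at -1.64 on array 1 and at 0.16 and 0.17 on arrays 2 and 3. These genes were also chosen after their values were seen.

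Of the 736 genes with values on exactly 2 arrays, 545 lacked array 3, as YFH1 and ISA1 do, and 182 lacked array 2, as JAC1 does.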
